A study of Mus musculus with 6 samples.

Results

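The transcripts of 10 genes that encode the cohesin ring and its regulators were described in the brains of aged wild-type (WT) and Sgo1-/+ mice. The genes were chosen by symbol: Rad21, Smc1a and Smc3 of the ring, the alternative ring-bound subunits Stag1 and Stag2, the accessory subunits Pds5a and Pds5b, the loader subunits Nipbl and Mau2, and the acetyltransferase Esco1. All 10 were found among the 38087 genes of the count table, and all 10 were among the 16337 genes with enough counts to be tested. The 3 WT mice were C57BL6 mice of 24 months, 1 male and 2 females. The 3 Sgo1-/+ mice were haploinsufficient for Shugoshin 1, of the same strain, age and numbers of each sex, and no mouse of either group had a treatment in the labels. Each mouse gave 1 RNA-seq library from the cerebrum with cortex and hippocampus, a dissection meant to leave out the olfactory bulb, cerebellum and medulla. The libraries keep the column names Br1 to Br3 (WT) and Br4 to Br6 (Sgo1-/+). All WT libraries were sequenced in run 258 and all Sgo1-/+ libraries in run 259, so run and genotype cannot be told apart.

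Cohesin is a ring built from the paired SMC proteins Smc1a and Smc3, closed by the kleisin Rad21 and bound by Stag1 or Stag2. Nipbl with Mau2 loads the ring onto DNA, Pds5a and Pds5b bind it and regulate its release, and Esco1 acetylates Smc3. In dividing cells cohesin holds sister chromatids together until anaphase, and Shugoshin 1, with the phosphatase PP2A, protects it at centromeres from early removal. In neurons and other cells that no longer divide, cohesin extrudes chromatin loops that end at sites bound by Ctcf. Wapl takes the ring off DNA, and Esco2 and Cdca5 (sororin) act in cohesion during replication.

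Promoter sequences in the RefSeq table (GRCm38.p6) matched 6 of the 10 genes: Smc1a, Smc3, Stag1, Pds5a, Pds5b and Mau2. The 150 bases before the annotated start are shown for Smc1a and Smc3, partners in the ring, and for Pds5a, the gene with the lowest level per length below, with CpG dinucleotides in capitals.
Smc1a, chrX:152016278-152016427, plus strand: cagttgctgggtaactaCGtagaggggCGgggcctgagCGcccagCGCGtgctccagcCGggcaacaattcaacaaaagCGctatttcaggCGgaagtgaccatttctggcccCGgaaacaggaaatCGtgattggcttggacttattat
Smc3, chr19:53600246-53600395, plus strand: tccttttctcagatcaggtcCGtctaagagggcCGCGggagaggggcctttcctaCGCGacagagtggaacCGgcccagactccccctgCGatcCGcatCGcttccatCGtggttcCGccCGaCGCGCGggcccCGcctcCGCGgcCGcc
Pds5a, chr5:65698237-65698386, minus strand: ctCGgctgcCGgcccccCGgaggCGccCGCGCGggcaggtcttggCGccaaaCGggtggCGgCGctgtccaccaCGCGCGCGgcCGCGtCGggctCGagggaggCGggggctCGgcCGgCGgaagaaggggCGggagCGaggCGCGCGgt
The windows held 10 CpG in Smc1a, 19 in Smc3 and 28 in Pds5a, against a median of 4 over the 32851 promoters of the table. Fewer CpG than in Pds5a stood in 99.2% of those promoters, and fewer than in Smc1a in 71.2%. Stag1 held 18 and Pds5b 19, and the pair of Mau2 windows 9 and 1. The letters GGGCGG, searched on both strands, occurred in the Smc1a, Smc3, Pds5a and Stag1 windows and in 1 of the Mau2 windows, and in 28.6% of all promoters. They were not among the letters of the Pds5b window. The RefSeq starts used for Stag1, for Pds5b and for the Mau2 window with 1 CpG lay within their genes as the count table places them. That of Pds5a lay outside its gene.

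Total estimated counts ran from 11123917 to 12505561 per library. Markers of the dissected-out regions were not absent. Library Br1 (WT) had the highest level of all 6 cerebellar granule cell markers, all 5 Purkinje cell markers and all 8 brain stem markers. The summed normalized counts of the granule cell markers were 16141 in Br1 and 446 to 1366 in the other libraries, and those of the brain stem markers were 3720 in Br1 and 15.5 to 53.3 elsewhere. The summed neuron markers were 62669 in Br1 and 91712 to 111664 in the others. The summed microglia markers were 1726 to 2451 in WT and 2737 to 2810 in Sgo1-/+, and the olfactory bulb markers 172 to 1802 and 99.4 to 818. No marker of either list passed the adjusted test, and their part in the values below was not tested. The mean correlation of Br1 with the other libraries over genes was 0.932, against 0.964 to 0.968 for the others, so counts of genes were also taken without it. Y-linked transcripts marked Br1 and Br5 as the male libraries, 1 in each group as labelled. Sgo1, the targeted gene, had 0, 7 and 0 counts in the WT libraries and 4, 2 and 0 in the Sgo1-/+ libraries, and a count of 0 allows up to 3 counts. At this depth its transcript did not check the genotype labels.

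None of the 10 cohesin genes passed the test for a difference between Sgo1-/+ and WT brain. By the quasi-likelihood test of edgeR, with p-values adjusted over all 16337 genes after Benjamini and Hochberg, each had an adjusted p of 0.9999, and 0 of the 10 passed an adjusted p of 0.05, as did 0 (0%) of all genes tested. None of the 10 had an unadjusted p under 0.05, against 333 genes (2.04%), and DESeq2 called none of the 10 and 3 genes in all. The groups of 3 overlapped for each of the 10, while 1119 genes (6.85%) did not overlap. Without Br1, still 0 of the 10 had groups apart, against 2983 of 16617 genes (18.0%), and 0 had an unadjusted p under 0.05. On the log2 scale 3 genes were above zero and 7 below, with a median of -0.04 against -0.0007 for all genes tested. The median size of the log2 difference was 0.05 for the 10 genes and 0.14 for all genes. The 95% intervals of the fold changes all lay between 0.722 and 1.37, both set by Esco1, so a 2-fold change of any of the 10 was outside its interval. Differences inside a gene's own interval were not excluded with 3 mice per group. In whole tissue, fewer cells of a type and less RNA per cell cannot be told apart.

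**Figure D1:**
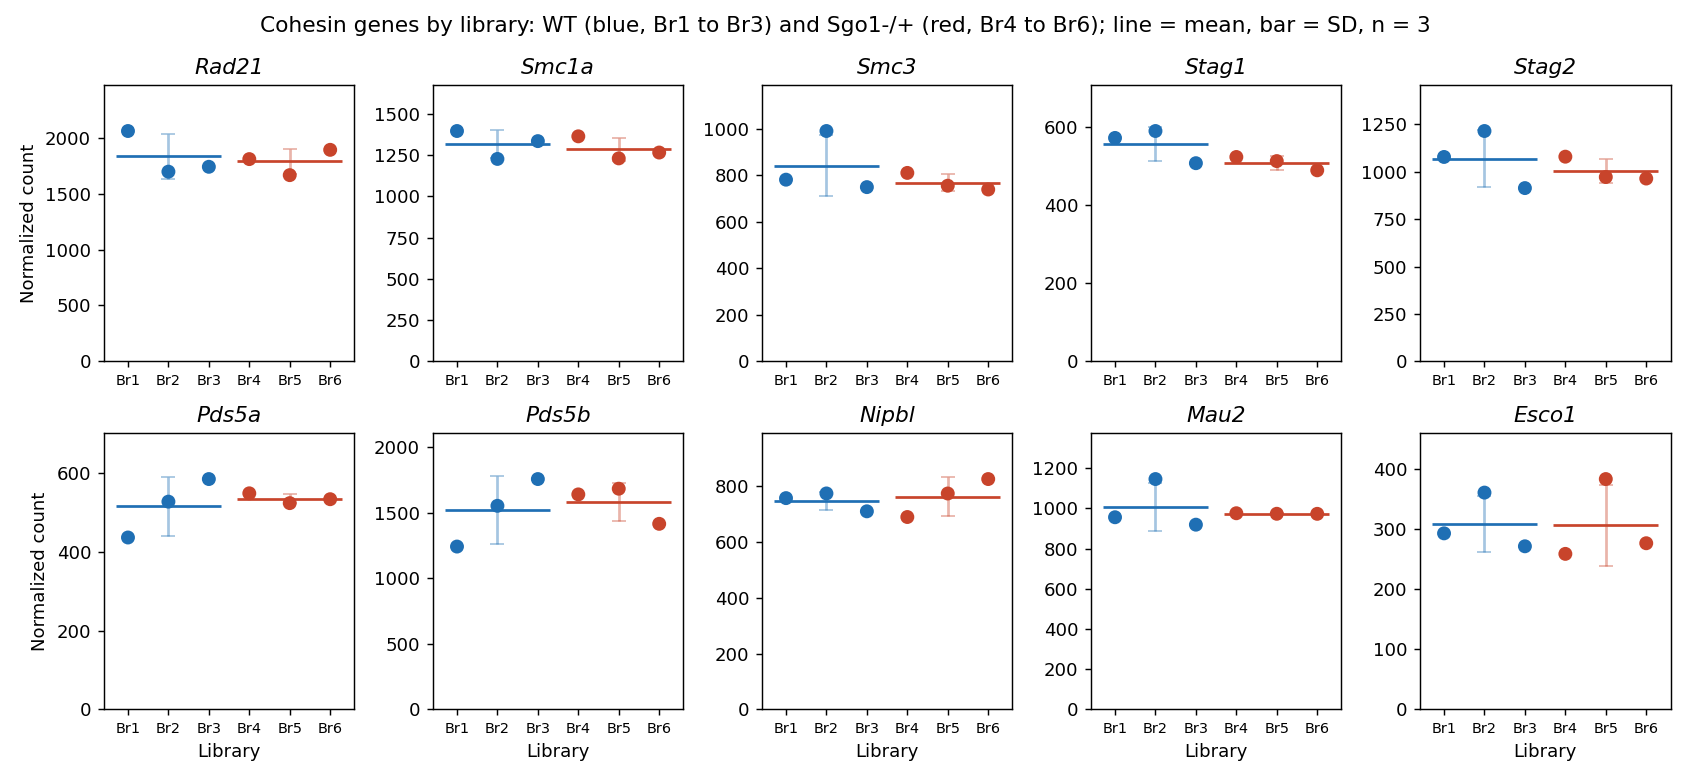
Normalized counts (vertical axes, from 0) of the 10 cohesin genes in the 6 libraries (horizontal axes), with WT in blue and Sgo1-/+ in red, lines at the group means and bars of 1 SD (n = 3). The groups overlap in every panel, and Br2 is the highest point for Smc3, Stag1, Stag2 and Mau2.

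The ranges of the groups overlapped for all 3 ring genes. Rad21 (chr15:51962605-51991760, mm10), the kleisin whose cleavage opens the ring, had normalized counts, counts scaled to a common library size, of 2060, 1696 and 1740 in WT and 1809, 1665 and 1892 in Sgo1-/+. The means were 1832 ± 198 and 1789 ± 114 (SD, n = 3), and the log2 difference was -0.03 with an SE of 0.12. Br1 was the highest library, and the other 5 lay between 1665 and 1892. Smc1a (chrX:152016428-152062694) had 1397, 1228 and 1336 in WT and 1365, 1231 and 1266 in Sgo1-/+, with means of 1320 ± 85.7 and 1287 ± 69.3 (SD, n = 3). Its highest library was 1.14 times its lowest, the narrowest range of the 10 genes. Smc3 (chr19:53600398-53645833), whose head is the target of Esco1, had 781, 990 and 749 in WT and 810, 755 and 739 in Sgo1-/+. Its means were 840 ± 131.0 and 768 ± 37.4 (SD, n = 3), and its log2 difference of -0.13 (SE 0.13) rested on Br2, without which it was 0.005.

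The alternative subunits Stag1 and Stag2 were both lower in the mean of Sgo1-/+, and neither passed the test. Stag1 (chr9:100597798-100958545) had 573, 591 and 508 in WT and 524, 514 and 489.9 in Sgo1-/+, with means of 557 ± 43.4 and 509 ± 17.5 (SD, n = 3). Its log2 difference was -0.13, with a 95% interval from -0.38 to 0.12 and an exact permutation p of 0.3, where the design allows no p below 0.1. It had the smallest unadjusted edgeR p of the 10, 0.264, and it alone stayed below zero whichever library was left out, between -0.19 and -0.09. Br1 and Br2 stood above all 3 Sgo1-/+ libraries, and Br3 among them. Stag2 (chrX:42149317-42277185) had 1077, 1214 and 913 in WT and 1079, 971 and 964 in Sgo1-/+, with a log2 difference of -0.09 (SE 0.13). Its WT libraries enclosed all of the Sgo1-/+ libraries. Of its exon length 0.338% overlaps a gene model on the opposite strand, and the TruSeq V2 kit that the labels name is known not to mark strand.

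Pds5a and Pds5b, paralogs that hold Wapl on the ring and also take part in its acetylation, were the genes of the 10 with their lowest value in Br1. Pds5a (chr5:65615260-65697856) had 437, 528 and 585 in WT and 549, 524 and 534 in Sgo1-/+, with means of 517 ± 74.9 and 536 ± 12.5 (SD, n = 3). Pds5b (chr5:150673739-150810690) had 1243, 1554 and 1758 in WT and 1641, 1684 and 1416 in Sgo1-/+, with means of 1518 ± 259 and 1580 ± 144 (SD, n = 3). Br1 was the lowest library and Br3 the highest for both. Their log2 differences were 0.05 (SE 0.13) and 0.06 (SE 0.15), and without Br1 they were -0.06 and -0.07. Pds5a overlaps a pair of gene models on the opposite strand over 0.615% and 1.32% of its exon length.

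The loader genes had log2 differences near zero, and neither passed the test. Nipbl (chr15:8291225-8444463), which carries the loading activity, had 758, 774 and 710 in WT and 689.9, 774 and 826 in Sgo1-/+. Its log2 difference was 0.03 with an SE of 0.11. Mau2 (chr8:70016123-70042734), its partner, had 956, 1146 and 919 in WT and 976, 973 and 973 in Sgo1-/+, with means of 1007 ± 122 and 974 ± 1.63 (SD, n = 3). Its WT libraries spread widely around the Sgo1-/+ libraries, with Br2 the highest. Esco1 (chr18:10566602-10610352), the acetyltransferase that acts also outside replication, had 293, 361 and 272 in WT and 259, 384 and 277 in Sgo1-/+. It had the lowest counts of the 10 and the widest range, 1.48 times from lowest to highest library, with 1 high library in each group. Its log2 difference was -0.01, with a 95% interval from -0.47 to 0.45.

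**Figure D2:**
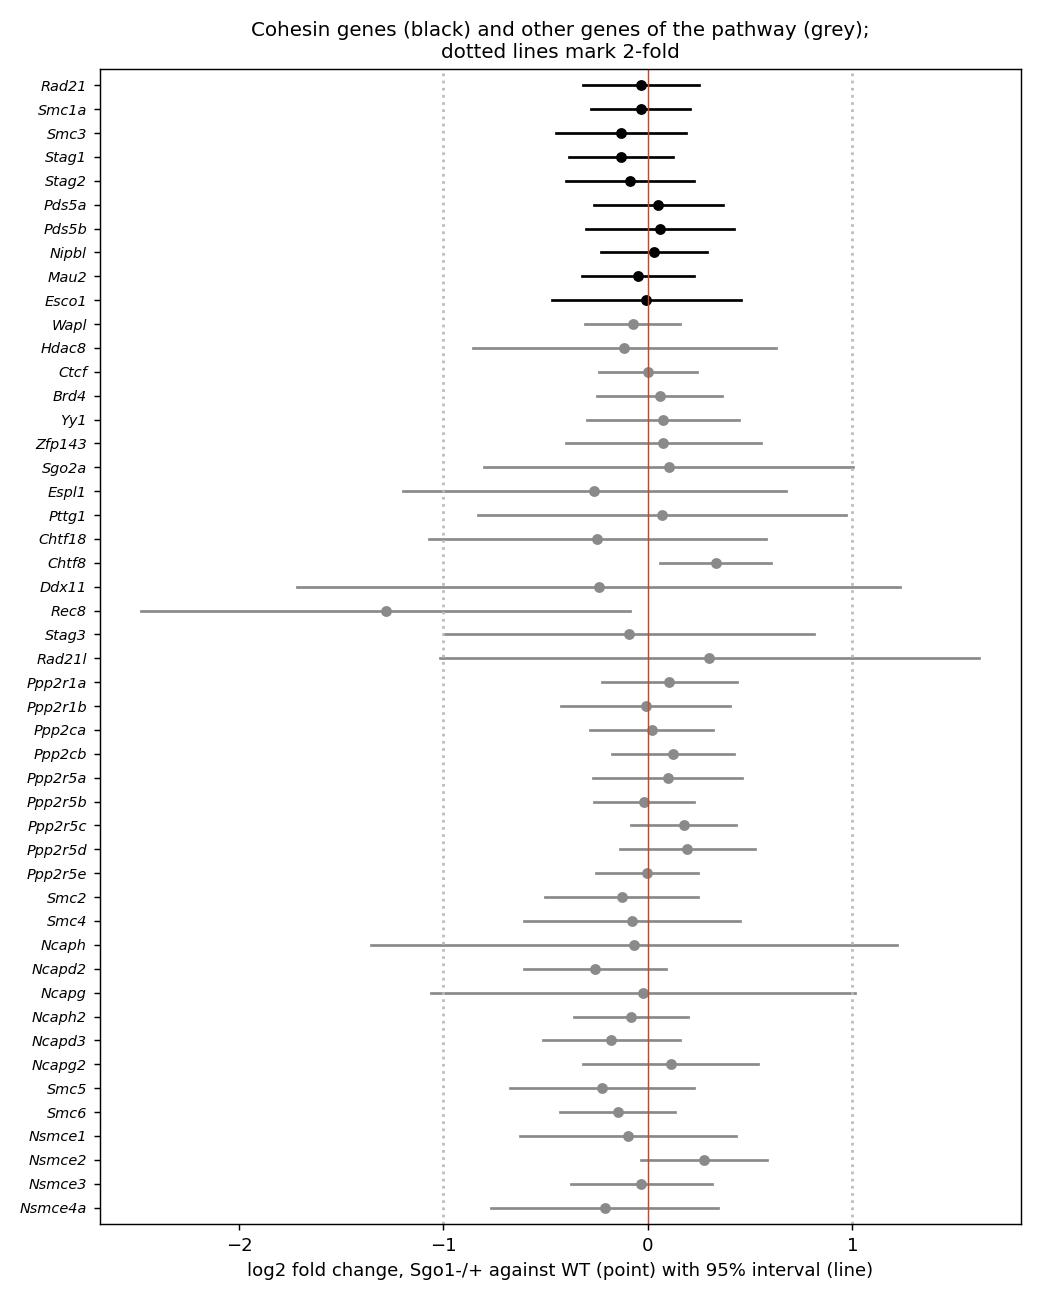
Log2 fold change of Sgo1-/+ against WT (horizontal axis, points) with 95% intervals (lines) for the 10 cohesin genes in black and 38 other genes of the pathway in grey. The grey genes include those of the related condensin and SMC5/6 complexes. All black intervals include 0 and lie inside the dotted lines at 2-fold, and of the grey intervals those of Chtf8 and Rec8 do not include 0.

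Ratios of partner genes within a library do not depend on library size. They are given per kilobase of the longest coding transcript, and other lengths would move their levels but not the differences between libraries. Stag1 stood at a median of 0.517 times Stag2, from 0.485 to 0.555 over the 6 libraries. Its log2 ratio differed by -0.05 between genotypes (exact two-sided permutation p = 0.4). Pds5a stood at 0.280 times Pds5b, from 0.258 to 0.313, although each gene alone ranged over 1.34 and 1.41 times, and the log2 difference was -0.01 (exact permutation p = 1). The Smc1a to Smc3 ratio had a median of 1.76, lay between 1.69 and 1.85 in 5 libraries and was 1.28 in Br2. It differed by 0.08 (exact permutation p = 1). Without Br2 the difference was -0.09, with an exact permutation p of 0.1, the smallest that 2 against 3 libraries allow. Nipbl stood at 0.446 times Mau2, from 0.385 in Br2 to 0.484, and differed by 0.07 (exact permutation p = 0.5). The adjusted p was 1 for each of the 4 ratios.

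Per length, the 10 genes covered a wide span of levels. The quantity compared here is the normalized count per kilobase of the longest coding transcript. Rad21 was highest, at 458 ± 37.1 (SD over 6 libraries), above 87.8% of the 14385 tested genes with a length. Smc1a followed at 278 ± 15.3, with all 6 libraries below those of Rad21. Pds5b at 209 ± 25.7, Mau2 at 184 ± 14.7, Stag2 at 168 ± 17.7 and Smc3 at 166 ± 19.5 came next, and neighbours in this order overlapped over libraries. After Smc3 the ranges parted again. Stag1 stood at 86.2 ± 6.40, Nipbl at 80.2 ± 5.20, Esco1 at 67.7 ± 11.4 and Pds5a at 58.9 ± 5.50, with overlap between each and the next. Pds5a still lay above 36.3% of the tested genes with a length. With the length of all annotated exons joined, Rad21, Smc1a and Pds5b kept the ranks 1 to 3 and Pds5a rank 10, while Mau2 moved from 4 to 6 and Stag1 from 7 to 9. With that length the median ratio was 0.364 for Stag1 to Stag2, 0.172 for Pds5a to Pds5b, 1.63 for Smc1a to Smc3 and 0.758 for Nipbl to Mau2, so the levels of partners against each other depend on the transcript model.

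**Figure D3:**
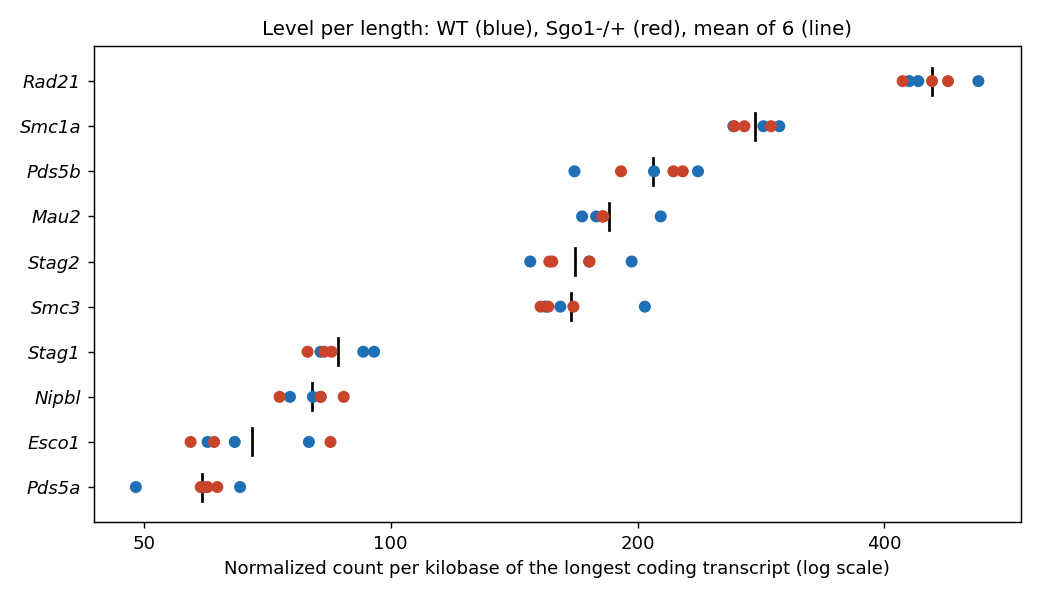
Normalized count per kilobase of the longest coding transcript (horizontal axis, log scale) for the 10 cohesin genes, with 6 libraries as points (WT blue, Sgo1-/+ red) and their mean as a line. Rad21 (421 to 521) and Smc1a (262 to 298) stand apart from the other genes, and the 4 lowest genes lie between 48.9 and 95.5.

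Smc1a and Stag2 lie on the X chromosome, where 1 copy is inactivated in females, and the human counterpart of Smc1a is known to escape that in part. In a fit with sex and genotype, Smc1a had a male minus female log2 difference of 0.02, with a 95% interval from -0.27 to 0.31 and an edgeR adjusted p of 0.981. The mean normalized counts of Smc1a were 1314 in 2 males and 1299 ± 62.8 (SD) in 4 females. Stag2 had a difference of -0.03, with an interval from -0.40 to 0.34 and an adjusted p of 0.973, and means of 1024 in males and 1042 ± 134 in females. Across the 10 genes the adjusted p for sex was 0.830 or more, and none passed. Of all 16337 genes 1 passed (0.00612%), Xist, which is expressed from the inactive X. The count filter asks for counts in as many libraries as a genotype group holds. The Y-linked genes used to read sex, counted mainly in the 2 male libraries, fall below that and were not tested. The male WT library was Br1, so the markers above moved with the comparison, and their part in it was not tested.

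The cohesin genes had a narrower range over the 6 libraries than the median gene. The highest library exceeded the lowest by a median of 1.29 times over the 10 genes, from 1.14 to 1.48, against 1.62 over all genes tested. A range below 1.62 was not particular to cohesin. The median was 1.31 for the 9 PP2A genes, 1.43 for condensin, 1.51 for SMC5/6 and 1.45 for the 38 tested other genes of the pathway. The 38 include these lists. All genes tested include many with few counts, and ranges were not compared at matched counts. In Br1 the median size of a gene's log2 distance from the median of the 6 libraries was 0.09 for the 10 genes and 0.26 for all genes. In Br2 the values were 0.135 and 0.139, about the same, and in the other 4 libraries 0.05 to 0.08 for the 10 genes and 0.10 to 0.12 for all genes. Their signed median in Br1 was 0.03, against 4.69 for the granule cell markers, 4.90 for the brain stem markers, 1.02 for the oligodendrocyte markers and -0.57 for the neuron markers. Normalized counts under 3 were raised to 3 for these distances. Most brain stem markers were below 3 outside Br1, so the size of 4.90 depends on that floor. The summed normalized counts of the 10 genes ran from 9377 to 10083 over the 6 libraries. Within Br1 the genes went both ways: Rad21 stood at 0.22 above its median, Pds5a at -0.28 and Pds5b at -0.36. In Br2 4 genes had their highest value, Smc3 at 0.37, Stag2 at 0.25, Mau2 at 0.24 and Stag1 at 0.19, and Esco1 stood at 0.34. Br2 also had the highest summed mitosis markers, 252 normalized counts, against 99.6 to 240 elsewhere, and the part of these in its cohesin values was not tested. Among 47 other listed genes, Hdac8, the Smc3 deacetylase, followed Rad21 most closely (Pearson's r = 0.84 over 6 libraries), then Nsmce4a (0.79) and Pttg1 (0.76). These were picked as the highest of 47 values, and a shared role was not tested. Hdac8 and Nsmce4a, like Rad21, had their highest value in Br1. Pds5b ran opposite to Rad21 (r = -0.88), the lowest r among all pairs of the 10 genes. Br1 held the highest value of Rad21 and the lowest of Pds5b. The highest r of such pairs was 0.94, for Smc3 and Mau2, both highest in Br2. For Nipbl the closest genes were Ppp2r1b (0.75), Ncapg2 (0.60) and Chtf18 (0.56), and all these points share libraries and their tissue content.

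**Figure D4:**
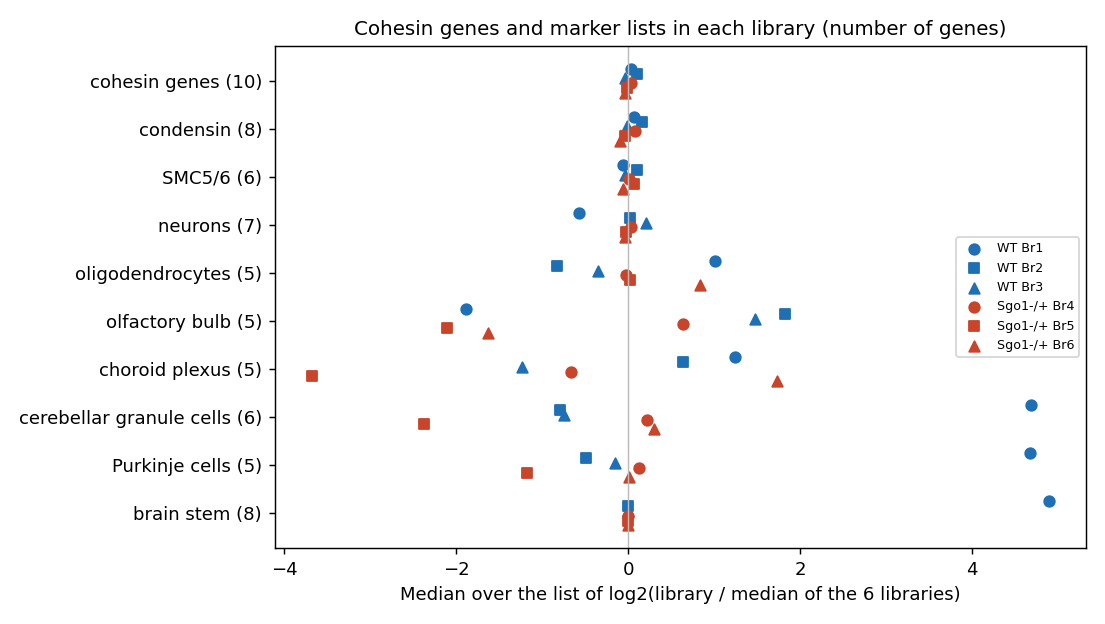
Median over each list of the log2 ratio of a library to the median of the 6 libraries (horizontal axis) for the cohesin genes, the condensin and SMC5/6 genes and 7 marker lists, with 1 symbol per library (WT blue, Sgo1-/+ red) and the number of genes in brackets. The medians of the cohesin (-0.04 to 0.10), condensin (-0.09 to 0.16) and SMC5/6 genes (-0.06 to 0.10) lie near 0 in every library although single cohesin genes reach -0.36 and 0.43, while Br1 stands at 4.67 to 4.90 for the cerebellar and brain stem lists. Normalized counts under 3 were raised to 3.

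Genes that act with cohesin, germline cohesin genes and genes of the related condensin and SMC5/6 complexes were taken from lists of 44 genes. Of these, 38 could be tested. None passed the adjusted threshold (0% of all genes), 1 had an unadjusted p under 0.05 and was higher, and 1 was lower, against 2.04% of all genes in either direction. Wapl, which releases the ring, had 813, 878 and 802 normalized counts in WT and 812, 742 and 814 in Sgo1-/+, a log2 difference of -0.07 (SE 0.10). Ctcf, the protein at which extruded loops stop, ranged from 899.7 to 1034 over the 6 libraries with a log2 difference of -0.001. The 9 PP2A subunits that Shugoshin works with were split 6 higher and 3 lower, from -0.02 to 0.19, with none past the test. The gene with the smallest unadjusted p among the higher genes was Chtf8, a subunit of the clamp loader used in cohesion. It had 677, 689 and 789 in WT and 836, 983 and 893 in Sgo1-/+, without overlap. Its log2 difference was 0.33 (SE 0.11, edgeR adjusted p 0.9999), and its unadjusted edgeR p was 0.0234. Without Br2, Br5 or Br6 that edgeR p was 0.0686, 0.0951 and 0.0557, with log2 differences of Chtf8 of 0.30, 0.26 and 0.34. In all, 3 of the 38 genes had groups that did not overlap, against 6.85% of all genes.

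Most genes of cohesion in dividing cells had few counts. Per kilobase, the 11 genes of the mitotic and replicative list had a median of 2.54, against 167 for the 10 cohesin genes. The median was 98.7 for the 14385 tested genes with a length. Esco2, the replicative counterpart of Esco1, had normalized counts of 0, 3.81 and 0 in WT and 3.97, 1.01 and 2.05 in Sgo1-/+. Sgo2a, the Shugoshin paralog, ranged from 9.08 to 16.5. Pttg1 (securin) at 178 per kilobase and Chtf8 at 277 were the members of this list above that median of 98.7. The other 9 lay between 0.582 and 10.6. The summed counts of 12 mitosis markers were 99.6 to 252, and 5 of the 7 tested were higher and 2 lower, with 0 past the adjusted test. Cenpa, the centromeric histone, had the unadjusted edgeR p under 0.05 in that list, with a log2 difference of 1.28 (SE 0.43). It had few normalized counts, 6.28, 7.62 and 13.3 in WT and 29.8, 18.3 and 17.4 in Sgo1-/+, without overlap. It did not keep that p without Br1, Br2 or Br4, with differences of 1.07, 1.17 and 0.99, and it was named after its values were seen.

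Of the meiotic genes Rec8, the germline kleisin, was the lower gene with an unadjusted p under 0.05, and it was named after its values were seen. It had 241, 104 and 77.5 normalized counts in WT and 59.1, 80.1 and 33.8 in Sgo1-/+, and the groups overlapped. Its log2 difference of -1.28 (edgeR adjusted p 0.9999) became -0.64 without Br1, with an unadjusted edgeR p of 0.120. No gene of the related SMC complexes passed the test. All 8 condensin genes were tested, 7 were lower and 1 higher, with a median log2 difference of -0.08. Ncapd2, a condensin I subunit, had 318, 257 and 243 in WT and 228, 236 and 219 in Sgo1-/+, without overlap. Its difference of -0.26 (SE 0.15, edgeR adjusted p 0.9999) became -0.13 without Br1. Of the 6 SMC5/6 genes, 5 were lower and 1 higher, with a median of -0.12. The higher gene was Nsmce2, its SUMO ligase, with 259.7, 247 and 218 in WT and 292, 311 and 273 in Sgo1-/+, without overlap, and a difference of 0.27 (SE 0.13, edgeR adjusted p 0.9999). Condensin genes had a median of 24.7 and SMC5/6 genes of 102 normalized counts per kilobase.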

How the data were processed

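RNA-seq libraries of 3 WT and 3 Sgo1-/+ mice were compared. Read pairs were aligned by the authors in Strand NGS against mm10, and the authors deposited an estimated count per Ensembl gene and library, without normalization; 47.0 to 48.3% of the values of a library, zeros included, differ from a whole number by more than 1e-06. BWA and edgeR appear in the submitters' processing notes. The Ensembl release and the use of strand are not given in the sources used here. The 6 columns of normalized values and the columns with the authors' own fold changes (signed, log2 and absolute) and their direction were not used.

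The columns are named Br1 to Br6, which match no sample title. Their groups (Br1 to Br3 WT, Br4 to Br6 Sgo1-/+) follow the rule given with the series, and no replicate number was assigned. The suffixes S1 to S3 in the names recur in both groups, and no label says that they number the mice. Sex was read from Y-linked counts (100 or more for male).

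Counts were rounded, filtered with filterByExpr, scaled by TMM and tested with edgeR 4.0.16 (R 4.3.3) by the quasi-likelihood test across all 16337 genes kept, p-values being adjusted after Benjamini and Hochberg and called at 0.05. An SE is the log2 fold change divided by the root of F. A normalized count is the estimated count brought to a common size, the mean of the 6 library totals after TMM scaling. Lengths came from GENCODE M21. Ratios were tested by the exact permutation test over 20 groupings. DESeq2 1.42.0 and limma 3.58.1, other size factors and filters, sex as a covariate and leaving out each library were alternatives. The joined exon length, the counts without Br1 and the fits of other named genes were added after seeing the data. The procedure was also run on simulated counts. Their spread between libraries was set below the biological coefficient of variation of 25.9% found here. That run therefore does not show what could be detected in these data.

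The 10 genes and the lists were chosen with earlier results of these data known. Other pathway genes were named where they were tested and their groups did not overlap, with Wapl, Ctcf, Sgo1, Sgo2a and Esco2 always named, and the 3 genes whose pattern over libraries was most like Rad21 and like Nipbl. Rec8, Cenpa and the levels of Pttg1 and Chtf8 were named after their values were seen. Nothing says how the mice relate beyond 1 library each, so p-values measure the spread between these libraries. The limit of 3 counts for a count of 0 covers counting error only.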

Additional observations from a re-analysis of the deposited data

How the results depend on the processing

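None of the 10 cohesin genes passed an adjusted p of 0.05 in any alternative. Of 120 refitted values, 107 kept their direction, 13 turned, each when 1 library was left out, and the smallest adjusted p was 0.767. The 13 belonged to 9 genes, and Stag1 alone did not turn. Without each library in turn the log2 difference ran from -0.086 to 0.058 for Rad21, -0.086 to 0.0069 for Smc1a, -0.20 to 0.0049 for Smc3, -0.19 to -0.09 for Stag1, -0.19 to 0.014 for Stag2, -0.055 to 0.15 for Pds5a, -0.067 to 0.18 for Pds5b, -0.030 to 0.099 for Nipbl, -0.11 to 0.056 for Mau2 and -0.21 to 0.12 for Esco1. Leaving out Br1 turned Rad21, Smc1a, Pds5a and Pds5b, and leaving out Br2 turned Smc3, Stag2, Mau2 and Esco1. Nipbl turned without Br3 or Br6, Esco1 also without Br4 or Br6, and Rad21 also without Br5. The log2 ratio difference ran from -0.10 to -0.004 for Stag1 to Stag2, -0.081 to 0.058 for Pds5a to Pds5b, -0.092 to 0.17 for Smc1a to Smc3 and -0.0020 to 0.14 for Nipbl to Mau2. The sex difference ran from -0.10 to 0.15 for Smc1a and -0.11 to 0.062 for Stag2. Ctcf ran from -0.042 to 0.061 and Sgo2a from -0.086 to 0.38. Over all genes, DESeq2 called 3 genes where edgeR called 0, and leaving out a library gave 0 to 1. The causes were not tested. No paired analysis was possible because no label ties a column, or the suffix S1 to S3 in its name, to a replicate number, so the planned fits with the number as a block were not run. Where a male library was left out, the lone male was assumed to vary like the other libraries. With 3 mice a group, differences inside the intervals above were not excluded.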
